A study of Mus musculus with 6 samples.

Results

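Apoe, Apod, Clu, Abca1, Lpl, Lrp1, Fabp3, Fabp5 and Fabp7 are 9 genes of lipid transport among the 18560 genes counted in cells of the mouse olfactory bulb. They were chosen by name for their function, all 9 were in the count table, and each was followed over 38 cell clusters and 6 libraries. Dissociated bulbs of 14-week-old C57BL/6NJ mice gave the cells, and all groups were of this wild-type strain. Control mice had no manipulation, naris occluded mice had been deprived of odour input by a plug in a nostril, and trained mice had been water deprived and taught to discriminate odours for a water reward; deprivation and training lasted 6 weeks. Each group had 2 libraries, and each library was 1 pool of 3 mice, replicate 1 of males and replicate 2 of females. The occlusion was unilateral, the study text also names the open side of occluded mice as a control, and the dissected tissue took along some cells of the olfactory epithelium.

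Brain lipids travel between cells on particles built around apolipoproteins, which glia secrete and which receptors of the low density lipoprotein receptor family take up. Inside cells, small fatty acid binding proteins carry fatty acids through the watery cytoplasm. Fabp7 is a classical gene of radial glia and of astrocytes, and olfactory ensheathing cells (OECs), the glia that wrap olfactory axons on their way into the bulb, are also known to express it.

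The libraries held 6705 to 10570 cells each and 11841160 to 17065083 unique molecular identifiers (UMIs, 1 per captured RNA molecule), with a median of 1028 to 1723.5 UMIs per cell. Of the 38 clusters in the deposited annotation, 22 were nonneuronal and 16 neuronal, and they held 51426 cells. Clusters carry their deposited names here, whose numbers differ in part from those in the study's supplement. Deposited Astro2 has 336 cells and Astro3 1780, the reverse of the supplement. Numbers of microglial, mesenchymal, OEC and neuronal clusters differ as well. Listed markers of its own type placed 35 of the 38 clusters among the highest for their class. The exceptions were EC2, N5 and OEC1. EC2, named for endothelial cells, had 6697 CPM (UMIs of a gene per 1000000 UMIs of the same cells) of 4 summed endothelial markers and also 4508 CPM of 4 summed OEC markers. N2, named as neuronal, had 11238 CPM of the OEC markers and 1863 CPM of 4 neuronal markers, and 61 of its 68 cells are not in the second, neuronal annotation. N11 lacked 660 of its 951 cells in that annotation and had 3469 CPM of the endothelial and 1887 CPM of the OEC markers. Barcodes were shared by libraries about as often as the size of the barcode list gives, for example 111 shared by both control libraries beside 104.6.

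Apoe, the main apolipoprotein of brain lipoproteins, was highest in macrophages (Mφ) and OECs. Its level in Mφ was 45257 to 55772 CPM over the 6 libraries, with a mean of 51643 ± 3638 (SD, n = 6). OEC1 followed at 47588 ± 4590.2 CPM, OEC2 at 43696 ± 3209 and monocytes (Mono) at 36396 ± 5892. Mφ and OEC1 differed by less than the larger SD. The lowest mean, 1686 ± 234 CPM, was in the neuronal cluster N1. All of these levels are descriptions with no test, since the clusters were made from the same cells.

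**Figure D1:**
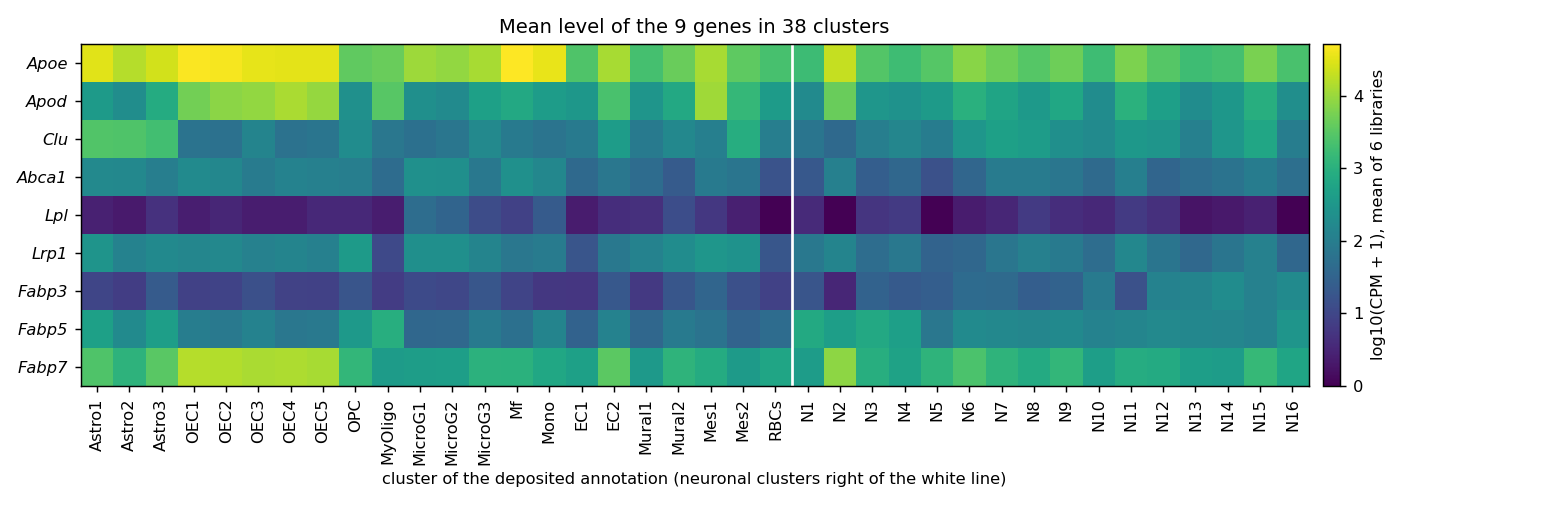
Colours give the mean level of each gene as log10(CPM + 1) over 6 libraries, with genes in rows and the 38 deposited clusters in columns; Mf stands for macrophages. Apoe was bright in Mφ, OECs and astrocytes, Apod and Fabp7 in OECs, Clu in astrocytes, and Fabp3 was brighter in several neuronal clusters (right of the line) than in glia.

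Apod, a lipocalin that carries small lipids such as arachidonic acid, was highest in OEC4, with 11140 to 14262 CPM and a mean of 12754 ± 1289.6 (SD, n = 6). The mesenchymal cluster Mes1 followed at 10787 ± 1580.3 CPM. OEC1, the OEC cluster with the lowest Apod, was at 5158 ± 578 CPM, and its highest library, 5742 CPM, was below the lowest library of every other OEC cluster. Myelinating oligodendrocytes (MyOligo) had 3022 ± 350.3 CPM.

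Clu encodes clusterin, a secreted chaperone that also rides on lipoproteins, and its highest levels were in the astrocyte clusters. Astro1 had 2449 to 2997 CPM, Astro2 2435 to 2705 and Astro3 a mean of 1922 ± 295 (SD, n = 6). Astro1 and Astro2 differed by less than the larger SD. The next cluster, mesenchymal Mes2, had 847 ± 400.4 CPM, and no OEC cluster was among the highest 6.

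Abca1, the pump that loads cholesterol onto apolipoproteins at the cell surface, was highest in the microglial clusters MicroG1 and MicroG2 and in macrophages. MicroG1 had 229 ± 55.9 CPM, Mφ 228 ± 36.7 and MicroG2 224 ± 16.1 (SD, n = 6), and these did not differ beyond their spread. The third microglial cluster, MicroG3, was lower at 75.8 ± 39.4 CPM. OEC1 had 180.4 ± 30.3 CPM and Astro1 163 ± 25.5. Lrp1, a large endocytic receptor for apolipoprotein particles, was highest in oligodendrocyte precursors (OPC), at 293 to 449 CPM with a mean of 369 ± 51.6. Mes1 followed at 301 ± 48.6 CPM and Astro1 at 275 ± 16.7. Its lowest mean, 9.79 ± 3.76 CPM, was in MyOligo, the myelinating cells of the same lineage as OPC.

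Lpl, lipoprotein lipase, which frees fatty acids from circulating triglycerides, gave 454 UMIs in all. MicroG1 had a median of 34.2 CPM over libraries, between 21.5 and 119.7 CPM, and the highest value was control replicate 2 alone. MicroG2 had 32.5 ± 19.5 CPM and Mono 21.3 ± 11.5 (SD, n = 6). The microglial clusters and Mono did not differ beyond their spread, and at this depth the order of Lpl over clusters cannot be read further.

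The 3 fatty acid binding proteins each had a different distribution. Fabp7, the brain type, was high in every library of every OEC cluster, from 10824.5 CPM in the lowest library of OEC3 to 16550.5 CPM in the highest of OEC1. OEC1 had 15524 ± 1036.5 CPM and OEC2 14992 ± 906 (SD, n = 6), which did not differ beyond their spread. Fabp5, first described in skin, was highest in MyOligo at 896 ± 188 CPM. The neuronal clusters N1 and N3 followed at 719 ± 56.3 and 699.7 ± 166 CPM, and MyOligo and N1 differed by less than the larger SD. Most cells of N1 and N3 carried the authors' name n04-Immature in the neuronal annotation (3283 of 3311 and 448 of 473), and n04-Immature itself had 708 ± 58.3 CPM. The next of the 18 neuronal clusters of that annotation, n05-PGC-2, had 279 ± 76.5 CPM.

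Fabp3, the type known from heart muscle, was highest in neurons. N14 had 150.0 to 266 CPM over libraries, with a mean of 196 ± 39.7 (SD, n = 6), and N16 had 176 ± 32.3. N14 held mitral and tufted cells of the neuronal annotation (M/TC names), and 166 of the 168 cells of N16 were n05-PGC-2, periglomerular cells. The endothelial cluster EC1 had 4.59 ± 1.54 CPM. After each cell was thinned to 500 UMIs, 8.33% of N16 cells and 5.33% of N14 cells had a Fabp3 UMI, against 0.396% in EC1. Before thinning, 47.6% of N16 cells (median depth 4028.5 UMIs), 27.5% of N14 cells (2404) and 0.872% of EC1 cells (1621) had one.

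Most molecules of 3 genes lay in OECs, although OECs were 22.7% of the cells and gave 25.8% of all UMIs. They held 82.8 ± 2.56% of Fabp7 UMIs, 80.3 ± 2.71% of Apod UMIs and 59.1 ± 3.68% of Apoe UMIs (SD, n = 6 libraries). Astrocytes, with 9.45% of all UMIs, held 65.0 ± 2.77% of Clu UMIs. Neurons, with 36.3% of all UMIs, held 79.2 ± 1.60% of Fabp3 and 46.1 ± 3.23% of Fabp5. Microglia, with 8.45% of all UMIs, held 51.8 ± 11.8% of Lpl UMIs. Lrp1 and Abca1 were spread over more classes, with their largest shares in OECs at 28.6 ± 2.30% and 34.9 ± 2.49%.

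**Figure D2:**
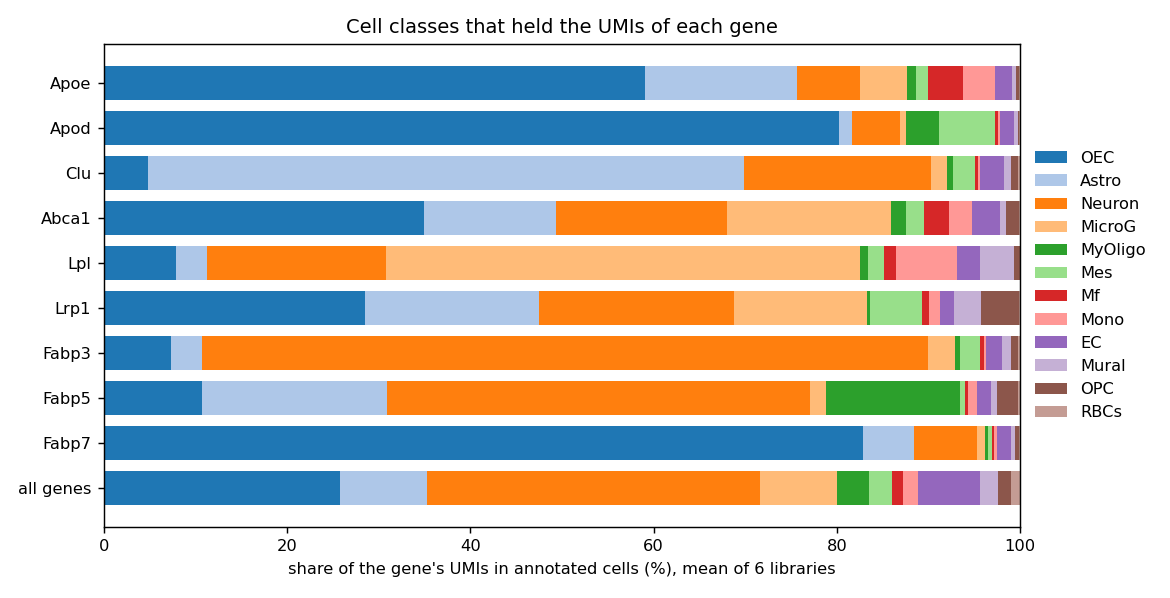
Bars show the mean share of the UMIs of each gene (percent of its UMIs in annotated cells, 6 libraries) that came from each cell class, beside the share of all genes in the lowest bar. OECs held 82.8% of Fabp7 and 25.8% of all UMIs, and neurons held 79.2% of Fabp3.

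The promoters of Fabp7 and Apod are shown because these genes had the largest shares of their UMIs in OECs. Both windows run from 250 bases before to 50 bases after the RefSeq transcription start on GRCm38.p6 (mm10), written 5′ to 3′ on the strand of the gene. Capitals mark matches, on either strand, to AACAAT (the core bound by SOX factors), TTGGC (the core of a nuclear factor I site) or GTGGGAA (bound by RBPJ, the Notch effector).
Fabp7, chr10:57784673-57784972, plus strand: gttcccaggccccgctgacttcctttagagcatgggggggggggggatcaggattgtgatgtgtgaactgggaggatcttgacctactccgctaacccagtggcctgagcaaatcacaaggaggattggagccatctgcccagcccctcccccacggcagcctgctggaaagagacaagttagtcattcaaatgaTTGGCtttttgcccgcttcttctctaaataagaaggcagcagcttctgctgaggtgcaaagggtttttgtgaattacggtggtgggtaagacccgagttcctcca
Apod, chr16:31314759-31315058, minus strand: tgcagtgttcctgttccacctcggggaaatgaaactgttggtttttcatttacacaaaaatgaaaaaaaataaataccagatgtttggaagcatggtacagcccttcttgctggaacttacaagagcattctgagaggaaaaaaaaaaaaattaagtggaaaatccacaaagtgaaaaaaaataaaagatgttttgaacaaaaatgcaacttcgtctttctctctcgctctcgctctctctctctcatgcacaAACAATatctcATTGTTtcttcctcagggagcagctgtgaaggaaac
The Apod window held 2 SOX matches and the Fabp7 window held 1 nuclear factor I match, and the matched letters do not overlap. Of 32851 promoter windows of the same length, 10.7% held the SOX letters, 46.7% the nuclear factor I letters and 6.38% the RBPJ letters. These matches describe the sequence only. Apoe lies at chr7:19696244-19701310 and Fabp7 at chr10:57784923-57788450 in the same build.

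Whether neurons expressed these genes was read against free RNA, the RNA released into the suspension that enters every droplet. For each library, the CPM of a gene over all neuronal cells was divided by its CPM over all annotated cells. A set of 20 reference genes that neurons should lack, such as C1qa of microglia and Cldn5 of endothelium, gave mean ratios of 0.0499 to 0.767, with a median of 0.126. The highest was Mobp, a myelin gene, and the other 19 reached at most 0.340.

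Apoe, Apod and Fabp7 had ratios inside that range in every library. Apoe was at 0.190 ± 0.0282 (SD, n = 6), Fabp7 at 0.187 ± 0.0271 and Apod at 0.144 ± 0.0253, beside 0.183 ± 0.0290 for Frzb, a marker of OECs. By this measure their level over all neurons is read as background. Fabp3 at 2.19 ± 0.182 and Fabp5 at 1.27 ± 0.0851 were above every reference gene in every library, which is read as expression in neurons. The reading is of all neuronal cells and not of each cluster. Mean Fabp5 ran from 73.0 CPM in N5 to 719 CPM in N1, beside 211 CPM over all annotated cells. In the neuronal annotation, n04-Immature had 708 CPM of Fabp5, n05-PGC-2 279 CPM and the next cluster, n06-Transition, 176 CPM.

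**Figure D3:**
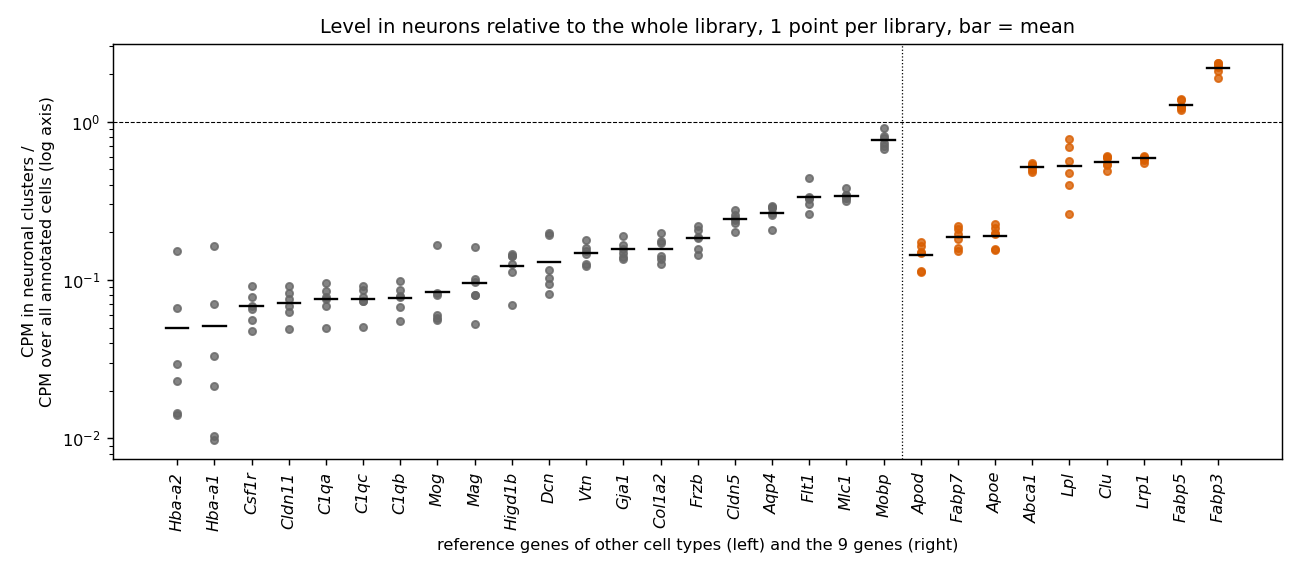
Points show, for each library, the CPM of a gene in neuronal clusters divided by its CPM over all annotated cells (log axis), with bars at the mean of 6 libraries; grey genes are reference genes of other cell types and orange genes are the 9 lipid carriers. Apod, Fabp7 and Apoe (0.144 to 0.190) lay among the reference genes, and Fabp5 (1.27) and Fabp3 (2.19) lay above all of them.

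Clu, Abca1, Lrp1 and Lpl fell between these groups. Lrp1 was at 0.585 ± 0.0198 (SD, n = 6), Clu at 0.560 ± 0.0455 and Abca1 at 0.514 ± 0.0258. They were above 19 of the 20 reference genes in every library and below Mobp, so the rule reads them as background with Mobp and as expression without it; leaving Mobp out was chosen after seeing the data. Lpl ran from 0.261 to 0.774. Among the neuronal clusters other than N2 and N11, the ratio of Clu ran from 0.176 ± 0.0332 in N1 to 1.62 ± 0.213 in N15, whose cells were mostly mitral and tufted (776 of 861 were n17-M/TC-3). The ratio of Apoe also differed between these clusters, from 0.102 ± 0.0187 in N1 to 0.444 ± 0.0744 in N6. Of the 3068 cells of N6, 2676 were n13-AstrocyteLike, which the paper treats as ambiguous, and 29.8% of its UMIs were mitochondrial. Frzb was at 0.0700 ± 0.0208 in N1, 0.265 ± 0.102 in N6 and 0.367 ± 0.117 in N15.

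The number of Apoe UMIs per cell ran from 2.82 to 8.96 in the 14 neuronal clusters other than N2 and N11. It was 3.01 in N1 (median depth 1734 UMIs), 2.91 in N3 (774), 2.82 in N8 (879), 4.76 in N6 (655), 6.03 in N15 (813) and 8.96 in N14 (2404). OEC1 cells had 107 Apoe UMIs on average. The ratio of Apoe to Fabp7 UMIs was 3.79 over all annotated cells, between 2.34 (N5) and 5.14 (N14) in these 14 clusters and 7.16 in N11. Of cells thinned to 500 UMIs, 50.8% of N1 cells and 39.7% of red blood cells (RBCs) had an Apoe UMI (87.4% and 91.3% without thinning, at median depths of 1734 and 3894 UMIs).

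N2 and N11 had the largest shares of cells with a Frzb UMI among the neuronal clusters. N2 had 20215 ± 6833 CPM of Apoe, 8113 ± 3377 of Fabp7 and 4369 ± 1151 of Apod (SD, n = 6), and 88.2% of its cells had a Frzb UMI, near the 94.0% of OEC4. N11 had 15.2 Apoe UMIs per cell against 2.82 to 8.96 in the 14 others without N2, and a Frzb UMI in 19.6% of its cells against 2.11% (N3) to 13.5% (N14) in those clusters, in cells of unlike depth and without thinning. The part of these markers in the values of both clusters was not tested.

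Among the 8795 genes that reached 50 CPM in some cluster, those with the most similar levels over the 38 clusters were named by Pearson's r of log2(CPM + 1), as a description over clusters that share libraries. For Apoe they were C4b, a complement component, Sdc4 and Apoc1, another apolipoprotein (r = 0.908, 0.863 and 0.863). For Fabp7 they were Hes5, a target of Notch, Mmd2 and Frzb (r = 0.945, 0.929 and 0.917). Apod was most like Aspa (r = 0.923), Clu like Gpc5 (0.858), Fabp3 like Sncb (0.923), Fabp5 like Pantr1 (0.843) and Lrp1 like Cd302 (0.761). Lpl did not reach 50 CPM in any cluster and was not compared. Among the other 8 genes, Apod and Fabp7 had r = 0.759 and Clu and Apoe had r = -0.018.

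Differences with odour deprivation and with training were tested by edgeR within each of 37 clusters; N2 was left out for too few cells. Of the 9 genes, 252 gene-cluster pairs could be tested in each comparison, 148 in nonneuronal and 104 in neuronal clusters. Lpl could be tested in 2 clusters and Fabp3 in 12, while Apoe, Apod and Fabp7 could be tested in all 37. Each p-value rests on a spread between pools that edgeR estimates partly from the other genes of the cluster. A pair can therefore pass although the 2 libraries of a group lie far apart. The comparisons of deprived and of trained mice with controls share the control libraries.

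In naris occluded against control mice, 1 of 148 nonneuronal pairs and 1 of 104 neuronal pairs passed an adjusted p of 0.05. The share of all gene-cluster pairs called in this comparison was 0.0424% in nonneuronal and 0.139% in neuronal clusters. Fabp7 rose in EC2, from 2996 and 2476 CPM in control to 4371 and 5055 CPM in naris occluded libraries, beside 2031 and 3334 CPM in trained ones (log2 fold change 0.76 ± 0.16 SE, edgeR adjusted p = 0.00971). Both naris occluded libraries were above the other 4. In the same cluster and comparison, 1 of 3 tested OEC markers also rose, the summed OEC list was 3936 and 3713 CPM in control and 6871 and 4956 CPM in naris occluded libraries, and in cells without a Frzb UMI the log2 fold change of Fabp7 was 0.21 (edgeR adjusted p = 0.986). It was also not called without control replicate 2 (0.64, edgeR adjusted p = 0.752) or naris occluded replicate 2 (0.67, edgeR adjusted p = 0.0607), and it kept its call in 8 of 13 alternatives in all.

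Apod rose in N4, a cluster of 141 cells, mostly n04-Immature (log2 fold change 1.57 ± 0.39 SE, edgeR adjusted p = 0.0389). The control libraries had 173 and 37.5 CPM, the naris occluded 224 and 627 CPM and the trained 57.2 and 383 CPM. These values rest on 18, 1, 15, 46, 3 and 31 UMIs, and 3 cells held 93.5% of the 46 UMIs of naris occluded replicate 2. Without that library the log2 fold change was 0.62 (edgeR adjusted p = 0.986). It was not called either when control replicate 1 (3.49, edgeR adjusted p = 0.161), control replicate 2 (1.29, 0.391), trained replicate 1 (1.60, 0.0686) or trained replicate 2 (1.59, 0.0566) was left out, and it kept its call in 3 of 12 alternatives in all.

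In trained against control mice, 3 of 148 nonneuronal and 2 of 104 neuronal pairs passed, beside 0.116% and 0.138% of all gene-cluster pairs. Fabp7 fell in 2 of the 3 astrocyte clusters. In Astro1, the control libraries had 3078 and 2670.0 CPM, the naris occluded 2736 and 3275 CPM and the trained 1869 and 1985 CPM. Both trained libraries were below the other 4, which overlapped with each other. The log2 fold change of trained mice was -0.59 ± 0.11 against control (edgeR adjusted p = 0.0267) and -0.64 ± 0.11 against naris occluded mice (edgeR adjusted p = 0.00731).

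Fabp7 was also lower in Astro2 of trained mice, the cluster whose cell counts the study's supplement lists under Astro3. Its control libraries had 1579 and 1741 CPM, its naris occluded libraries 1020.3 and 1046 CPM and its trained libraries 669 and 686 CPM, and the 3 groups did not overlap. The log2 fold change of trained against control was -1.29 ± 0.22 (edgeR adjusted p = 0.000116), and it stayed called under all 13 alternatives run for it. Naris occluded mice did not pass against control there (-0.72 ± 0.20, edgeR adjusted p = 0.176). Over all neurons, whose Fabp7 is read as background, the level was 936 and 865 CPM in control, 791 and 911 CPM in naris occluded and 700.4 and 647 CPM in trained libraries, so that the trained libraries of Astro2 were at about the level of neurons. At 500 UMIs per cell, 31.8% of Astro2 cells had a Fabp7 UMI (64.9% without thinning), beside 17.9% of N1 cells. Astro2 was small, with 33 to 82 cells per library, and the 3 cells richest in Fabp7 held 31.8% to 52.4% of its Fabp7 UMIs. Astro3 had a log2 fold change of -0.39 ± 0.19 against control and did not pass (edgeR adjusted p = 0.997). Its trained libraries had 2038 and 3510.0 CPM, and the latter was within the control values of 3577 and 3509 CPM.

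**Figure D4:**
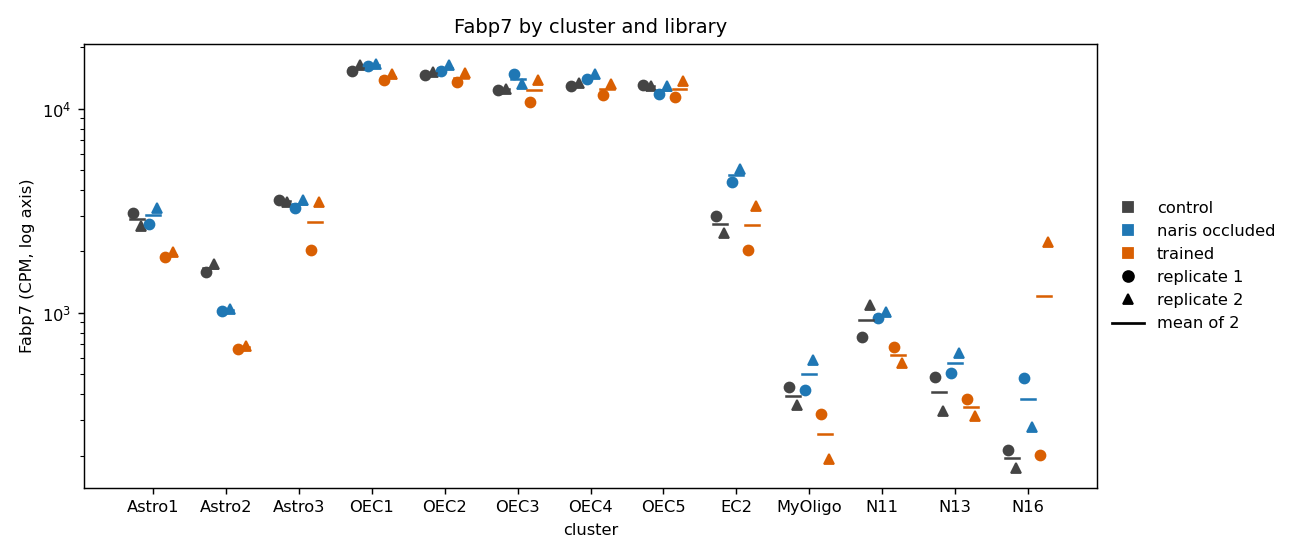
Points show Fabp7 in CPM (log axis) in each library of astrocyte, OEC and 5 other clusters, coloured by group and shaped by replicate, with lines at the mean of the 2 libraries. Both trained libraries were below the other 4 in Astro1 and Astro2, and also in OEC1, MyOligo and N11. In the OEC clusters no comparison passed.

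Markers of other cells were read in the same clusters. In Astro1, none of the 4 OEC markers passed in either comparison of trained mice, and their sum was 998 to 1044 CPM in control, 780 to 1122 in naris occluded and 1081 to 1187 in trained libraries. None of the 5 astrocyte markers passed there, and their sum was 9012 to 10190.0 CPM over the 6 libraries. In Astro2 none of the 5 astrocyte markers passed in trained against control mice, with log2 fold changes from -0.41 (Gfap) to 0.45 (Aldoc). In naris occluded against control mice none passed either, with Gfap at -0.86 ± 0.23 and Aqp4 at -0.91 ± 0.31 (edgeR adjusted p = 0.147 and 0.459). The OEC sum in Astro2 was 752 and 498 CPM in control, 372 and 637 in naris occluded and 287 and 275 in trained libraries. Npy, an OEC marker, had a log2 fold change of -1.57 ± 0.39 there in trained against control mice (edgeR adjusted p = 0.0534), and its part in the Fabp7 value was not tested. In cells without a Frzb UMI, Fabp7 in trained against control mice was lower by 0.70 on the log2 scale in Astro1 and by 1.14 in Astro2 (edgeR adjusted p = 0.00523 and 0.0402). Lack of a Frzb UMI does not mark a cell as free of OEC RNA. Of OEC3 cells, 53.9% had a Frzb UMI, and OEC3 cells averaged 12.4 UMIs of Fabp7 and 0.959 of Frzb. The Astro1 call against control was lost without control replicate 1 (log2 fold change -0.51, edgeR adjusted p = 0.424), control replicate 2 (-0.66, 0.104), naris occluded replicate 2 (-0.59, 0.0676) or trained replicate 1 (-0.53, 0.064) and with only the libraries of the groups compared (-0.59, 0.083), and the call against naris occluded mice was lost without naris occluded replicate 2 (-0.50, 0.387).

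The share of Astro1 cells with a Fabp7 UMI at 500 UMIs per cell was also lowest in the trained libraries, with no test. It was 66.0% and 54.4% in control, 58.7% and 66.2% in naris occluded and 43.5% and 46.0% in trained libraries. Over all libraries it was 57.0% (83.6% without thinning, median depth 1851.5 UMIs), beside 17.9% in N1 (42.0%, median depth 1734). The trained libraries were also the lowest in Astro3, at 50.1% and 57.7% against 63.6% to 69%. They were so too in the neuronal cluster N8, at 21.3% and 22.8% against 25.9% to 34.8%. In N13 they were not, at 17.9% and 18.4% beside 17.4% and 15.1% in control. In the OEC clusters, where Fabp7 was highest, no comparison passed. For OEC1 the log2 fold change was -0.15 ± 0.08 in trained against control (edgeR adjusted p = 0.882) and -0.20 ± 0.08 in trained against naris occluded mice (edgeR adjusted p = 0.617). The trained libraries of OEC1 had 13899 and 14853 CPM, below the 15274 to 16550.5 CPM of the others. Unadjusted edgeR p in trained against naris occluded mice was 0.0229 in OEC1, 0.0367 in OEC2 and 0.0185 in OEC4. It was 0.244 in OEC3 and 0.998 in OEC5. The difference between astrocytes and OECs in this response was not tested.

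Fabp5 fell in MyOligo of trained mice. The control libraries had 1160 and 1035 CPM, the naris occluded 971 and 801 CPM and the trained 709 and 702 CPM. The log2 fold change against control was -0.64 ± 0.13 (edgeR adjusted p = 0.0469). The naris occluded libraries lay between the other groups without overlap, and their comparison with control did not pass (log2 fold change -0.31, edgeR adjusted p = 1). The call was lost without control replicate 1 (-0.58, edgeR adjusted p = 0.519) or control replicate 2 (-0.71, edgeR adjusted p = 0.143), by DESeq2 (adjusted p = 0.127), and in cells with at least 1000 UMIs (-0.65, edgeR adjusted p = 0.0567) or without a Frzb UMI (-0.64, edgeR adjusted p = 0.0657), and the cluster had 94 to 224 cells per library.

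The neuronal pairs called in trained against control mice were Apod in N11 and Fabp7 in N16. Over all genes, 0.617% of those tested in N11 were called in this comparison. Fabp7 in N16 rested on trained replicate 2, with 2223 CPM against 201 CPM in trained replicate 1 and 174 to 477 CPM in the other 4 libraries. That value came from 192 UMIs in 16 cells, of which 3 cells held 94.3%, and both tested OEC markers rose with it. Without trained replicate 2 the log2 fold change went from 2.53 to 0.05 (edgeR adjusted p = 0.993), and without cells with a Frzb UMI it was -0.50 (edgeR adjusted p = 0.997). It kept its call in 9 of 13 alternatives in all. Apod in N11 was lower by 0.87 ± 0.19 on the log2 scale (edgeR adjusted p = 0.0225), with 1300.5 and 891 CPM in control and 681 and 567 CPM in trained libraries. The 4 OEC markers all had lower values there and 1 passed, and the call was lost without control replicate 1 (-0.58, edgeR adjusted p = 0.595), naris occluded replicate 1 (-0.86, 0.0591) or trained replicate 2 (-0.73, 0.0573), in cells without a Frzb UMI (-0.37, 0.676) and with only the libraries of the groups compared (-0.87, 0.064).

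The comparison of trained with naris occluded mice contrasts no control library, although these entered the shared estimate of the spread. It uses the same trained and naris occluded libraries as the comparisons with control. All 8 pairs called in it were lower in trained mice. They were 4 of 148 nonneuronal and 4 of 104 neuronal pairs, beside 0.165% and 1.1% of all gene-cluster pairs. Calls over all genes were 117 higher and 66 lower in nonneuronal clusters, and 388 higher and 411 lower in neuronal clusters. Of the 799 neuronal calls over all genes, 613 were in N11, where 7.14% of 8586 tested genes were called. Mitochondrial UMIs were 10.2% and 9.76% of all UMIs in naris occluded and 13.4% and 10.5% in trained libraries, OECs were 25.7% and 24.9% against 18.3% and 23.1% of cells, and their part in these calls was not tested. The Astro1 result is given above. The other nonneuronal pairs were Fabp7 and Apod in EC2 and Fabp7 in MyOligo. In EC2 the log2 fold changes were -0.80 ± 0.16 for Fabp7 and -0.66 ± 0.17 for Apod (edgeR adjusted p = 0.00439 and 0.0424). All 3 tested OEC markers had lower values in the same contrast and 1 passed, and in cells without a Frzb UMI the log2 fold changes were -0.05 and -0.13 (edgeR adjusted p = 0.99 and 0.946). Without trained replicate 1, Fabp7 in EC2 was at -0.49 and not called (edgeR adjusted p = 0.286), and it kept its call in 9 of 13 alternatives in all. Apod in EC2 was not called when naris occluded replicate 1 (-0.36, edgeR adjusted p = 0.545), trained replicate 1 (-0.54, 0.363), control replicate 1 (-0.65, 0.107) or control replicate 2 (-0.65, 0.0768) was left out. It kept its call in 3 of 13 alternatives in all, with losses also by DESeq2 (adjusted p = 0.999) and in cells with at least 1000 UMIs (-0.32, edgeR adjusted p = 0.834).

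Fabp7 in MyOligo was at 417 and 587 CPM in naris occluded and 318 and 192 CPM in trained libraries (log2 fold change -0.99 ± 0.20, edgeR adjusted p = 0.0225). N1, a cluster in the background range for Fabp7, had 410.1 CPM. The OEC marker Frzb had a log2 fold change of -1.06 ± 0.46 in MyOligo in the same comparison (edgeR adjusted p = 0.705), none of 4 OEC and 5 astrocyte markers passed, and their part in the Fabp7 value was not tested. The call was lost without naris occluded replicate 2 (-0.70, edgeR adjusted p = 0.111), without trained replicate 2 (-0.67, 0.0707) and in cells without a Frzb UMI (-0.83, 0.0688). It was also lost by DESeq2 (adjusted p = 1), with only the libraries of the groups compared (edgeR adjusted p = 0.163) and in cells with at least 1000 UMIs (-0.99, edgeR adjusted p = 0.0543). N11 had 3 called pairs. Apoe was at 7416 and 8063 CPM in naris occluded and 4511 and 4423 CPM in trained libraries (log2 fold change -0.84 ± 0.14, edgeR adjusted p = 6.3e-05). Apod and Fabp7 were lower by 1.12 ± 0.20 and 0.69 ± 0.20 on the log2 scale (edgeR adjusted p = 0.000193 and 0.0257), while 3 of 4 OEC markers and 4 of 4 endothelial markers fell in the same cells. Of 5 astrocyte markers there, all had lower values and 1 passed, Aqp4 (-0.94 ± 0.29, edgeR adjusted p = 0.0408). In cells without a Frzb UMI, the log2 fold changes were -0.74 for Apoe, -0.67 for Apod and -0.62 for Fabp7, and none of the 3 passed (edgeR adjusted p = 0.0507, 0.152 and 0.211). Fabp7 in N11 was also not called without naris occluded replicate 1 (-0.73, edgeR adjusted p = 0.141), naris occluded replicate 2 (-0.62, 0.193) or trained replicate 2 (-0.56, 0.109).

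Fabp7 in N13, a cluster of granule and periglomerular cells, had 506 and 636 CPM in naris occluded and 378 and 313 CPM in trained libraries. The log2 fold change was -0.72 ± 0.15 (edgeR adjusted p = 0.00594), and in cells without a Frzb UMI it was -0.74 (edgeR adjusted p = 0.00405). None of 3 tested OEC markers passed there. The call was lost without naris occluded replicate 2 (-0.52, edgeR adjusted p = 0.264) or trained replicate 2 (-0.58, 0.257), and DESeq2 did not make it (adjusted p = 0.837). Fabp7 in N13 was at 0.101 of its level over the whole library, within the range of the reference genes. Over whole libraries, Fabp7 was at 4251 and 4416 CPM in control, 4978 and 5014 CPM in naris occluded and 3340.2 and 4239 CPM in trained libraries. The part of this whole-library level in the values of neurons, MyOligo and the astrocyte clusters was not tested.

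**Figure D5:**
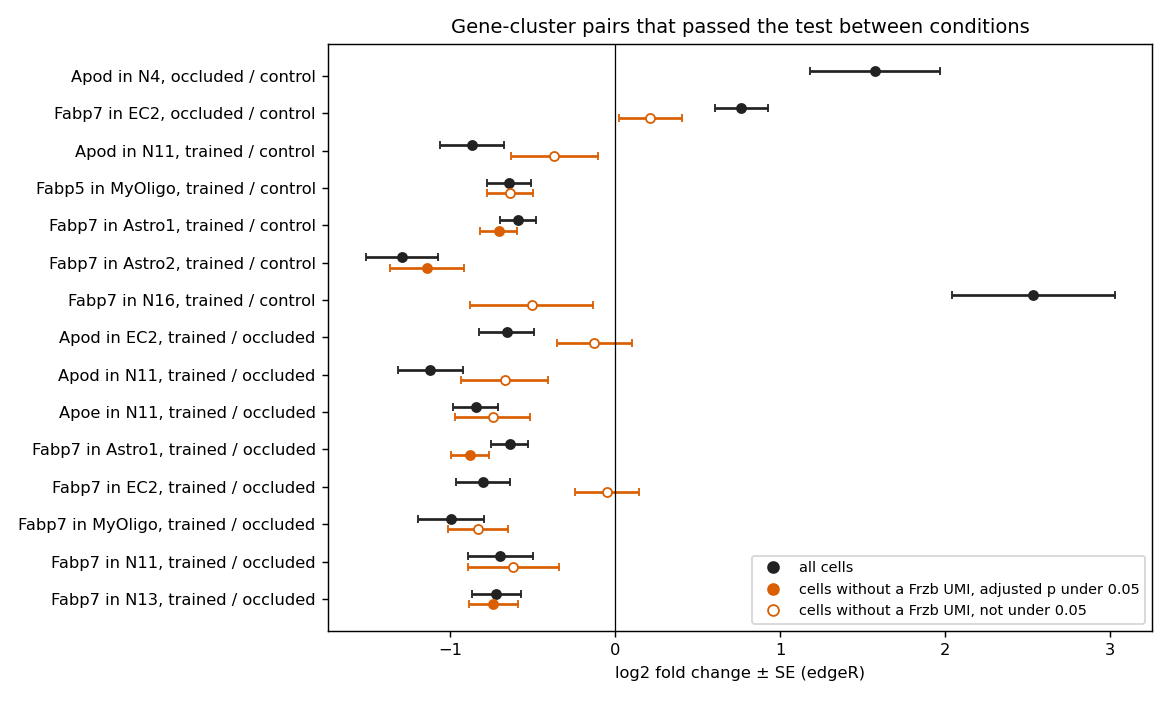
Points show the log2 fold change with its SE (edgeR) of the 15 gene-cluster pairs called between conditions, for all cells in black and for cells without a Frzb UMI in orange, filled where the adjusted p is under 0.05. Of the 14 pairs with both values, 4 were still called without Frzb cells: Fabp7 in Astro1 in both comparisons, Fabp7 in Astro2 and Fabp7 in N13. Cells without a Frzb UMI can still hold OEC or free RNA, since only 53.9% of OEC3 cells had one.

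Fabp7 made up 9 of the 15 calls and Apod 4. Fabp7 values were negative in 31 of 37 clusters in trained against naris occluded mice, with a median log2 fold change of -0.39, beside a median of 0.00 over all genes in both kinds of cluster. The clusters share their libraries, whose mean Fabp7 level over all cells was 4996 CPM in naris occluded and 3790 CPM in trained mice, so the clusters are not independent. Clu, Abca1, Lpl, Lrp1 and Fabp3 had 0 pairs called by edgeR in 324 tests over the 3 comparisons. Of these, 24 (7.41%) had an unadjusted p under 0.05, beside 4.47% to 9.14% of all gene-cluster pairs by comparison and kind of cluster, and DESeq2 also called 0. For Apoe in Mφ, Apod in OEC4 and Clu in Astro1, the clusters where each was highest, the values against control were between -0.11 and 0.11 on the log2 scale and none passed.

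Abca1 in MicroG1 had a log2 fold change of -0.48 ± 0.22 in naris occluded against control mice (edgeR adjusted p = 1). Lrp1 in OPC was at -0.19 ± 0.20 in naris occluded and 0.08 ± 0.19 in trained against control mice (edgeR adjusted p = 0.978 and 1). Lpl in MicroG1 was at -1.29 ± 0.44 in naris occluded and -1.34 ± 0.46 in trained against control mice, and did not pass (edgeR adjusted p = 0.937 and 0.818), with control replicate 2 as the 1 high library. In MicroG2 the Lpl value was -1.03 ± 0.39 in trained against control and -1.66 ± 0.37 in trained against naris occluded mice (edgeR adjusted p = 0.895 and 0.0769). Over all microglia, Lpl was at 27.5 and 61.2 CPM in control, 27.9 and 52.2 CPM in naris occluded and 16.4 and 21.3 CPM in trained libraries, and both trained libraries were the lowest. Of the 6 Lpl tests, 4 had an unadjusted p under 0.05. Fabp3 in N14 was at 0.09 ± 0.35 and -0.32 ± 0.39 (edgeR adjusted p = 0.999 and 0.976).

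Other genes of lipid handling were read from a list of 44, of which 40 were in the table and 38 could be tested. None of 653 pairs was called by edgeR in naris occluded against control mice, where 46 (7.04%) had an unadjusted p under 0.05, beside 4.47% of all nonneuronal and 5.48% of all neuronal gene-cluster pairs, and DESeq2 also called 0. In trained against control mice, 1 of 220 neuronal pairs (0.455%, beside 0.138% of all gene-cluster pairs) and 0 of 433 nonneuronal pairs were called by edgeR, 69 of all 653 (10.6%) had an unadjusted p under 0.05, beside 5.93% and 6.16% of all nonneuronal and neuronal gene-cluster pairs, and DESeq2 called 2, beside 0.0317% and 0.0433% of all such pairs. The pair was Lrp8 in N11, a receptor for apolipoprotein E and reelin, which rose by a log2 fold change of 0.92 ± 0.23 (edgeR adjusted p = 0.046). In trained against naris occluded mice, 6 of 653 pairs were called by edgeR, all lower in trained mice. They were 4 of 220 neuronal pairs (1.82%, beside 1.1% of all gene-cluster pairs) and 2 of 433 nonneuronal pairs (0.462%, beside 0.165%). DESeq2 called 1, beside 0.0333% and 0.437% of all nonneuronal and neuronal pairs. An unadjusted p under 0.05 by edgeR was found for 87 (13.3%), beside 7.23% and 9.14% of all such pairs. By edgeR, 6 lipid pairs thus passed. The 5 with the largest changes were Ttr, the carrier of thyroxine and retinol, in OEC3 (-2.56 ± 0.57), Pltp, a phospholipid transfer protein, in N11 (-1.40 ± 0.20), Scp2, a sterol carrier, in N11 (-0.84 ± 0.26), Ptgds, a lipocalin that makes prostaglandin D, in N6 (-0.78 ± 0.16) and Dbi, an acyl-CoA binding protein, in EC2 (-0.62 ± 0.16). Ttr in OEC3 was high in 1 library of the naris occluded pair, replicate 2, and in control replicate 2. Pltp was highest in EC1 (1428 ± 189 CPM), and the endothelial and OEC markers of N11 fell in the same comparison, as given above. Over all genes, 7.14% of those tested in N11 were called in it. Ptgds was highest in Mes1, at 155022 ± 20696 CPM, against 1536 to 3996 CPM in N6, whose cells were mostly n13-AstrocyteLike. The part of other cells or of free RNA in these values, and in that of Lrp8 in N11, was not tested.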

How the data were processed

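The authors made counts of UMIs per gene and barcode from Chromium 3′ v2 libraries and deposited them without normalization in 1 table for all libraries; the submitters' processing notes name Cell Ranger 2.0.0, Seurat 2.2.1 and mm10. They also deposited, per cell, the library and the cluster, and a second annotation of neurons. Doublets had been removed by the authors, and none were removed here. The name starts of the trained cells are reversed against the library column, and the column was used; Xist and Ddx3y gave replicate 1 as male and replicate 2 as female.

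Counts were summed per cluster and library. CPM are these sums over those of all genes. The 9 genes, the gene lists and the tests were chosen with earlier results of these data known. Conditions were compared with edgeR 4.0.16 in R 4.3.3 (quasi-likelihood test, TMM factors, filterByExpr, all 6 libraries, clusters with at least 10 cells in every library, Benjamini-Hochberg over all genes of a cluster, threshold 0.05), with DESeq2 1.42.0 as an alternative. SE is the log2 fold change over the square root of F. Libraries of 2 against 2 cannot give an exact permutation p under 0.333, so none is given. On simulated counts in which 200 genes had a log2 change of 1, edgeR called 58% of them among 9623 genes in Astro1, 44.5% among 7599 in MicroG2, 37.5% among 7893 in N8 and 5.5% among 2398 in Mes2; 8.66%, 5.32%, 2.6% and 21.4% of its calls there were false.

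Every called pair of the 9 genes was named, as was each of these genes in its highest cluster, and of other lipid genes at most the 5 called pairs with the largest changes per comparison. The likeness over clusters is not reported here for Abca1. Thinning drew 500 UMIs per cell, and the shares cover counting error only. Positions and promoters came from RefSeq tables of GRCm38.p6: 9 of the 9 genes had a position and 6 a promoter. With Xist, Tsix, Ddx3y, Eif2s3y, Kdm5d and Uty left out, same-numbered libraries hardly deviated together (correlations between -0.0201 and 0.0828). Replicate numbers were not used as pairs in the main test. Since replicate 1 is male and replicate 2 female in every group, a block on the number is also a block on sex. Differences between the sexes thus stayed in the spread of the main test, and the calls with the block are given below.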

Additional observations from a re-analysis of the deposited data

Results flagged for a closer look

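The 1123 barcodes that the deposited annotation puts in no cluster also held UMIs of all 9 genes, in data that no comparison used. Their mean levels over 6 libraries were 19053 CPM for Apoe, 3326 CPM for Apod, 513 CPM for Clu, 153.7 CPM for Abca1 and 175.9 CPM for Lrp1. Fabp7 was at 4899 CPM there, Fabp5 at 164.3 CPM, Fabp3 at 20.2 CPM and Lpl at 5.95 CPM. In annotated cells the means were 16654 CPM for Apoe, 2965 CPM for Apod, 372 CPM for Clu, 99.4 CPM for Abca1, 123 CPM for Lrp1, 4373 CPM for Fabp7, 211 CPM for Fabp5, 29.4 CPM for Fabp3 and 5.32 CPM for Lpl. Clu, Abca1 and Lrp1 were higher, and Fabp5 lower, in these barcodes than in annotated cells in each of the 6 libraries, with no test. The difference of Apoe, Apod, Fabp7, Fabp3 and Lpl did not have the same sign in every library. Dixon's test for a single library far from its group needs at least 4 samples and was not run, since every group had 2 libraries.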

How the results depend on the processing

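The number of gene-cluster pairs called was 2 in naris occluded against control mice. It was 4 with the replicate block (which is also sex), 0 by DESeq2 (12 had an unadjusted p under 0.05), 6 with only the libraries of the groups compared, 1 in cells with at least 1000 UMIs, 0 with clusters pooled by cell class (10 unadjusted by edgeR), 1 in cells without a Frzb UMI, and 1 without clusters EC2, N11 and N16. In trained against control mice it was 5, and 10 with the replicate block, 9 without a filter on low counts, 3 with only the libraries of the groups compared, 1 by cell class, 2 without Frzb cells, 3 without the 3 clusters and 7 to 17 with a library left out. In trained against naris occluded mice it was 8, and 15 with the replicate block, 4 by DESeq2, 4 by cell class, 3 without Frzb cells, 3 without the 3 clusters and 4 to 19 with a library left out. Over all genes, in these 3 comparisons the share of nonneuronal pairs called was 0.0424%, 0.116% and 0.165%, and 0.0749%, 0.167% and 0.265% with the replicate block, 0.00361%, 0.0317% and 0.0333% by DESeq2, 0.0488%, 0.119% and 0.156% without the filter, and 0.0284%, 0.0554% and 0.142% by cell class. The share of neuronal pairs was 0.139%, 0.138% and 1.1%, and 0.206%, 0.24% and 1.49% with the block and 0.045%, 0.0433% and 0.437% by DESeq2. It was 0.0743%, 0.0689% and 0.413% without the filter, and 0.0448%, 0.0746% and 1.97% by cell class. Without Frzb cells the nonneuronal shares were 0.048%, 0.06% and 0.138% and the neuronal 0.0988%, 0.0834% and 0.54%. With only the libraries compared they were 0.0639%, 0.104% and 0.0951%, and 0.134%, 0.0988% and 0.922%. In cells with at least 1000 UMIs they were 0.0349%, 0.0928% and 0.126%, and 0.145%, 0.142% and 1.38%. The cause of these differences was not tested. A fit with a library left out leaves 1 library in a group, and the share of all pairs called then rose or fell by library and comparison. In naris occluded against control mice, each count with a library left out was above the main count of 2. The counts without the 3 clusters stand without a share over all genes. The direction was reversed for Fabp7 in N16 alone, with a log2 fold change of -0.50 in cells without a Frzb UMI. Over all 15 called pairs, the call was lost with its direction kept in 62 combinations of a pair and an alternative. Without Mobp, 5 genes in place of 2 were above all reference genes in neurons. The settings without Mobp, without Frzb cells and without the 3 clusters were chosen after seeing the data. Each group had 2 pools, and Lpl gave 454 UMIs in all, which limits the precision of these values.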
